A study of Bos taurus with 14 samples.

Results

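miR-424, miR-503, miR-542 and miR-450 are made from precursor genes that lie side by side. The count table was searched for every mature miRNA with one of these names, whatever its letter or arm, and 7 of the 1030 mature miRNAs in the table matched: bta-miR-450a, bta-miR-450b, bta-miR-542-5p, bta-miR-503-5p, bta-miR-503-3p, bta-miR-424-5p and bta-miR-424-3p. Small RNA was sequenced from peripheral white blood cells (PWBC) of 14 Angus-Simmental crossbred heifers, with 1 library per heifer and blood drawn at weaning. After estrus synchronization and artificial insemination (AI), 7 of these heifers became pregnant to AI (fertile, FH) and 7 were not pregnant after AI and a later period with bulls (subfertile, SFH). No treatment separated the groups, and the outcome that defines them came after sampling. Both groups had been chosen from 1 herd to be alike in age and weight, and PWBC are a mixture of white blood cell types, so that fewer cells of a type and less miRNA per cell cannot be told apart.

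A miRNA is cut from a hairpin precursor, from its 5′ arm (5p) or its 3′ arm (3p), and pairs through the bases near its 5′ end, the seed, with matching sites in mRNAs, which are then repressed. Precursors that sit close together are often transcribed as 1 long primary transcript, so that neighbours can share their regulation, while processing and stability of the mature forms can still set them apart. miR-424 and miR-503 belong to the extended seed family of miR-15 and miR-16, which is known for repressing cyclins and other genes of the cell cycle, and miR-424 is known to accumulate when blood precursors differentiate into monocytes. RefSeq places the precursor genes in ARS-UCD2.0, a later cattle assembly than the one the reads were aligned to, on the X chromosome in the order *MIR450B*, *MIR450A-1*, *MIR450A-2*, *MIR542*, *MIR503* and *MIR424*. Only 1 other gene lies between them, the precursor gene *MIR3601*, whose mature miRNA had a count of 0 in all 14 heifers. The protein-coding gene *HPRT1*, an enzyme of purine salvage, borders the group on the side of *MIR450B*, and *PLAC1*, a gene known from the placenta, borders it on the side of *MIR424*.

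The libraries held 1754971 to 5468341 counts on mature miRNAs (median 3319368 in FH and 2663375 in SFH). Where a heifer had no count, up to 3 counts remain possible, a limit of 0.549 to 1.71 CPM (counts per 1000000 counts) depending on its depth, and this limit and the intervals below cover counting error only. The most abundant of the 8 leukocyte markers was bta-miR-150, a lymphocyte miRNA, at 65601 ± 15939 CPM in FH and 65247 ± 21033 CPM in SFH. The next was bta-miR-223, a myeloid miRNA, at 16435 ± 4122 CPM and 20291 ± 4630 CPM (± SD over 7 heifers each). The least abundant, bta-miR-146b, was at 82.6 ± 47.2 CPM in FH and 119 ± 59.1 CPM in SFH. None of the 8 leukocyte markers passed the thresholds used below, which 3.81% of the 341 miRNAs tested passed. Their log2 fold changes (SFH relative to FH) ranged from −0.25 for bta-miR-155 to 0.49 for bta-miR-146b, with a median of 0.05. The labels name no preparation batch.

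All members were rare in PWBC. At least 1 count was present for 5 of the 7 members, and the other 2, bta-miR-503-3p and bta-miR-542-5p, had a count of 0 in all 14 heifers. Over the 43043889 counts of all heifers together, a count of 0 leaves room for up to 0.0697 CPM. bta-miR-450b was the most abundant member with 1573 counts in total, followed by bta-miR-424-3p with 417, bta-miR-450a with 378, bta-miR-424-5p with 194 and bta-miR-503-5p with 162. By total count they ranked 199, 262, 275, 324 and 338 among the 1030 mature miRNAs. No heifer had counts on fewer than 3 members, 6 heifers had counts on 3, 4 had counts on 4, and 4 had counts on 5. The members summed to 13.7 to 117 CPM in FH (median 99.2) and 19.7 to 68.8 CPM in SFH (median 44.1). bta-miR-450b made up between 31.0% and 81.4% of that sum in FH (median 71.2%) and between 0% and 67.0% in SFH (median 33.8%).

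To be tested, a miRNA had to reach 1 CPM in 7 or more heifers, and 4 members did: bta-miR-450b, bta-miR-450a, bta-miR-424-5p and bta-miR-424-3p. bta-miR-503-5p reached that CPM in 6 heifers and missed the filter by 1 heifer. CPM values of the heifers refer to the summed counts of the 341 miRNAs that passed. A member could pass through the heifers of 1 group alone, so no count over these 4 is taken as support for a difference.

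bta-miR-450b lies at the *HPRT1* end of the group. In FH its level was 22.2 CPM in heifer 20, 36.1 in heifer 22, 78.7 in heifer 24, 5.28 in heifer 25, 76.5 in heifer 27, 80.8 in heifer 29 and 44.3 in heifer 31. In SFH it was 6.67 CPM in heifer 17, 40.9 in heifer 21, 0 in heifer 23, 28.8 in heifer 26, 18.5 in heifer 28, 19.2 in heifer 30 and 19.1 in heifer 32. Every one of the 7 SFH values was under the median of FH, and 4 FH values exceeded the highest SFH value, but FH heifer 25 lay below all SFH heifers except heifer 23, so the groups overlapped. The mean was 49.1 ± 30.2 CPM (SD, n = 7) in FH and 19.0 ± 13.5 CPM (SD, n = 7) in SFH. The count of 25 in FH heifer 25 has an exact Poisson interval (95%) of 3.42 to 7.80 CPM, far under the 66.1 to 92.9 CPM of FH heifer 24, so these heifers of 1 group differed by more than counting error. The count of 0 in SFH heifer 23 allows up to 0.969 CPM.

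The log2 fold change of bta-miR-450b (SFH relative to FH) was −1.45 with a standard error of 0.77 and a 95% interval of −3.06 to 0.16 in edgeR's quasi-likelihood test. Its unadjusted p-value was 0.0753 and its Benjamini-Hochberg adjusted p-value over the 341 miRNAs was 0.890. It did not reach the thresholds of the study (p-value of at most 0.05 and absolute log2 fold change of at least 0.5), which 13 of the 341 miRNAs passed (3.81%), 8 of them lower in SFH (2.35%), and none of the 4 members was among them. In edgeR 0 miRNAs passed after adjustment, with 20 at 0.05 or less before adjustment (5.87%), and in DESeq2 2 passed after adjustment (0.587%), neither of them a member. DESeq2, the tool of the study, gave bta-miR-450b a log2 fold change of −1.46 with a standard error of 0.71 and an unadjusted p-value of 0.0406. It was thus past the thresholds in DESeq2, together with 15 other miRNAs (16 of 341 in all, 4.69%). The study, too, reported bta-miR-450b as downregulated in SFH. The exact two-sided permutation test of the mean log2(TMM-normalized CPM + 0.5) gave a difference of −1.73 and p = 0.0868, where 21 of the 341 miRNAs (6.16%) reached 0.05 or less. The size of the difference moved little on leaving out single heifers, from −1.76 without SFH heifer 21 to −1.23 without SFH heifer 23. The edgeR p-value fell to 0.0392 without FH heifer 25 and to 0.0460 without SFH heifer 21, the only 2 of these fits past the threshold. It rose to 0.136 without FH heifer 29 and to 0.132 without FH heifer 24 or FH heifer 27. Its side of the threshold thus depended on single heifers.

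bta-miR-450a comes from a pair of precursors next to that of bta-miR-450b. The count table lists it 2 times with identical counts, so reads were counted on both precursors and cannot be assigned to either. Whether reads were also split between bta-miR-450a and bta-miR-450b was not tested, and FH heifer 29 had 364 counts of bta-miR-450b beside 0 of bta-miR-450a. In FH bta-miR-450a had 59 counts in heifer 20, 71 in heifer 22, 13 in heifer 24, 1 in heifer 25, 64 in heifer 27, 0 in heifer 29 and 23 in heifer 31. In SFH it had 14 counts in heifer 17, 30 in heifer 21, 9 in heifer 23, 9 in heifer 26, 37 in heifer 28, 0 in heifer 30 and 48 in heifer 32. The groups overlapped almost throughout, at 0 to 38.9 CPM in FH (median 7.41) and 0 to 26.2 CPM in SFH (median 7.18). SFH heifer 23, in turn, had 9 counts of bta-miR-450a and 0 of bta-miR-450b. The log2 fold change was −0.56 (standard error 1.16, 95% interval −2.97 to 1.85), edgeR's adjusted p-value was 0.977, and the exact two-sided permutation p was 0.948. Without FH heifer 22 the log2 fold change was −0.01, whereas without SFH heifer 32 it was −1.09.

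bta-miR-503-5p had a count in 8 of the 14 heifers, most of them SFH. Among FH it had 31 counts in heifer 22 (17.0 CPM), 49 in heifer 27 (8.96 CPM) and 0 in the other 5 heifers. Among SFH it had 35 counts in heifer 17 (18.0 CPM), 6 in heifer 21 (2.25 CPM), 1 in heifer 23 (0.323 CPM), 0 in heifer 26, 2 in heifer 28 (0.650 CPM), 18 in heifer 30 (4.55 CPM) and 20 in heifer 32 (10.9 CPM). It was therefore detected in 2 of 7 FH and 6 of 7 SFH heifers, which did not pass 0.05 in Fisher's exact test (two-sided p = 0.103), while the summed counts were 80 in FH and 82 in SFH. At these depths a heifer without a count could still have carried up to 1.71 CPM in FH heifer 24 or 1.15 CPM in SFH heifer 26, more than the levels of the SFH heifers with 1 or 2 counts. Without the filter, edgeR gave it a log2 fold change of 0.44 (standard error 1.68, adjusted p-value 0.961 over 614 miRNAs). That fit is unlike the filtered one, since 126 of its 614 miRNAs passed the thresholds, compared to 13 of 341 with the filter.

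**Figure D1:**
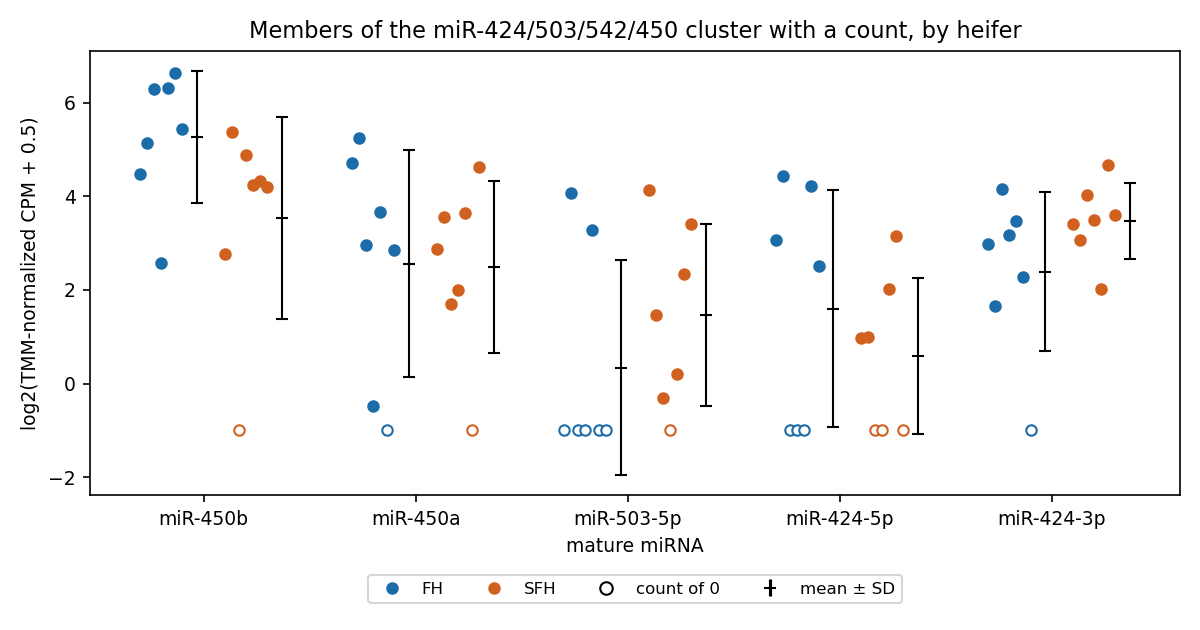
Level of the 5 members with a count, as log2(TMM-normalized CPM + 0.5) on the vertical axis, in FH (blue) and SFH (orange) heifers; each point is 1 heifer, open points are counts of 0, and bars give the mean ± SD of 7 heifers. For bta-miR-450b 4 FH points lie above every SFH point, as do 2 each for bta-miR-450a and bta-miR-424-5p, but the groups overlap for every member. bta-miR-450b and bta-miR-424-3p had a count in 13 heifers each, bta-miR-450a in 12, and bta-miR-503-5p and bta-miR-424-5p in 8 each.

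bta-miR-424-5p and bta-miR-424-3p are the arms of 1 precursor, at the *PLAC1* end of the group. The 5p arm, the one that shares its seed with miR-15 and miR-16, had 18 counts in FH heifer 20, 40 in heifer 22, 67 in heifer 29 and 18 in heifer 31, and 0 in FH heifers 24, 25 and 27. In SFH it had 3 counts in heifer 17, 4 in heifer 21, 11 in heifer 28 and 33 in heifer 30, and 0 in heifers 23, 26 and 32. It was thus detected in 4 of 7 heifers of each group, at up to 21.9 CPM in FH and up to 8.34 CPM in SFH. Its log2 fold change of −1.76 was the 4th lowest of the 341 miRNAs, but with a standard error of 1.48 (95% interval −4.85 to 1.32) the unadjusted p-value was 0.247 and the adjusted p-value 0.947 in edgeR. The exact two-sided permutation p was 0.382. Without SFH heifer 30 the log2 fold change was −2.72 and without FH heifer 22 it was −1.25.

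The 3p arm was present more evenly. In FH it had 17 counts in heifer 20, 5 in heifer 22, 31 in heifer 24, 39 in heifer 25, 56 in heifer 27, 16 in heifer 29 and 0 in heifer 31. In SFH it had 21 counts in heifer 17, 21 in heifer 21, 51 in heifer 23, 28 in heifer 26, 11 in heifer 28, 98 in heifer 30 and 23 in heifer 32. The level was 7.14 ± 5.85 CPM (SD, n = 7) in FH and 12.4 ± 6.75 CPM (SD, n = 7) in SFH. SFH heifer 30, at 24.8 CPM, was the only SFH heifer above every FH heifer, and 1 SFH heifer, heifer 28, lay below the FH median. The log2 fold change was 0.74 (standard error 0.94, 95% interval −1.21 to 2.69), with an adjusted p-value of 0.947 in edgeR and an exact two-sided permutation p of 0.146. The log2 fold change was 0.45 without SFH heifer 30 and 1.11 without FH heifer 24. bta-miR-424-3p was the 1 member of the 4 tested with a value above 0, and the other 3 had values below 0, as did 44.9% of all miRNAs tested. The median log2 fold change was −1.01 over the 4 members and 0.06 over the 341 miRNAs.

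Within the miR-424 precursor, the arms did not go together from heifer to heifer. The 3p arm had more counts than the 5p arm in 9 heifers, the 5p arm had more in 4, and they were equal in SFH heifer 28. The 4 heifers with more 5p were all FH (heifers 20, 22, 29 and 31), and in heifer 20 the difference was 1 count. In the remaining FH heifers the 5p arm had no count beside 31, 39 and 56 counts of the 3p arm, whereas FH heifer 31 had 18 counts of 5p and none of 3p. The mean log2 ratio of 5p to 3p, with 0.5 CPM added to each, was −0.77 ± 3.73 (SD, n = 7) in FH and −2.90 ± 1.91 (SD, n = 7) in SFH. The difference of these means, −2.14, did not reach the p-value threshold (p = 0.196, exact two-sided permutation test). It was −2.87 to −1.41 with 1 heifer left out. Summed over heifers, the arms had 143 and 164 counts in FH and 51 and 253 counts in SFH, and 67 of the 143 FH counts came from heifer 29 and 98 of the 253 SFH counts from heifer 30.

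**Figure D2:**
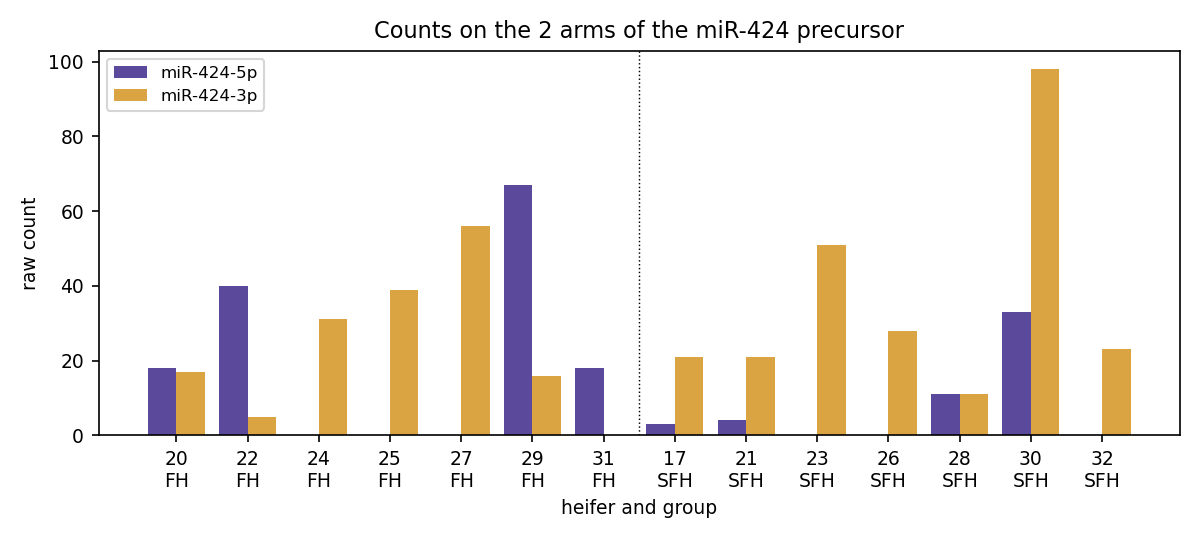
Raw counts (vertical axis) of the 5p arm (purple) and the 3p arm (yellow) of miR-424 in each heifer, FH to the left and SFH to the right of the dotted line. The 5p bar is the taller one in 4 FH heifers and in no SFH heifer, and it is missing in 3 heifers of each group.

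The 4 members tested also varied more between heifers of a group than the typical miRNA. Their biological coefficient of variation in edgeR was 0.962 for bta-miR-450b, 1.05 for bta-miR-424-3p, 1.39 for bta-miR-450a and 1.80 for bta-miR-424-5p, compared to a median of 0.660 over the 341 miRNAs. For bta-miR-424-5p, 94.4% of the miRNAs had a smaller value, and for bta-miR-450b 61.9% had. Most of the 341 miRNAs were more abundant than each member, and the part of low counts in this spread was not tested. The groups did not overlap for 0 of the 341 miRNAs (0%), the members included.

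**Figure D3:**
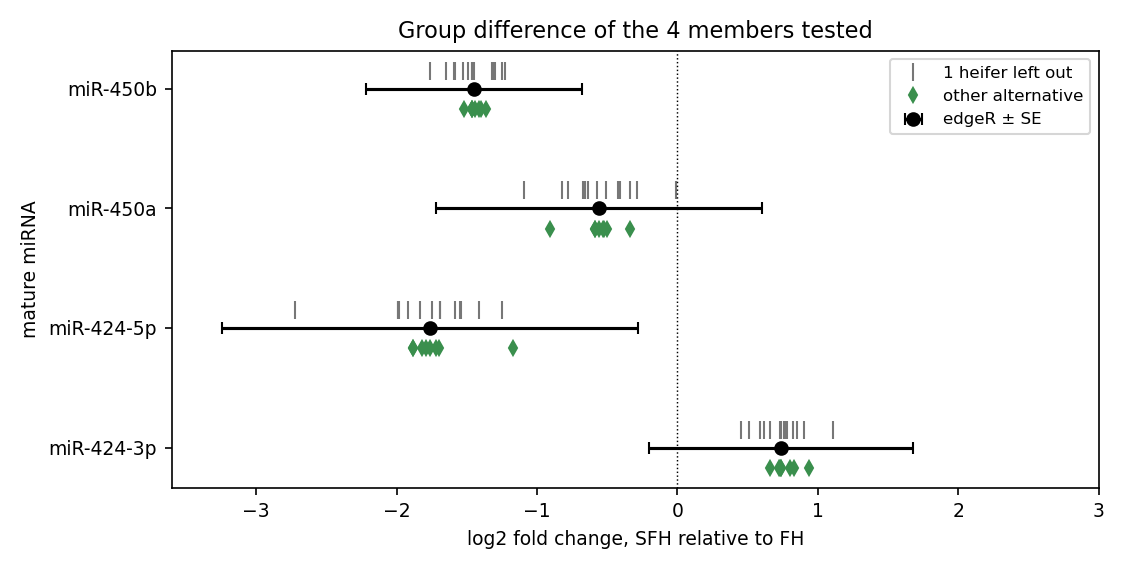
Log2 fold change (horizontal axis, SFH relative to FH) of the 4 members tested; black points with bars are the edgeR estimate ± standard error, grey ticks are the fits without 1 heifer each, and green diamonds are the other alternatives. The values of bta-miR-450b stay between −1.76 and −1.23, those of bta-miR-424-3p stay above 0, and those of bta-miR-450a reach −0.01.

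The remaining question was whether the neighbours follow bta-miR-450b from heifer to heifer, as co-transcribed precursors might. No neighbour did so detectably. Over 14 heifers, on log2(TMM-normalized CPM + 0.5), Pearson's r with bta-miR-450b was 0.14 for bta-miR-450a (permutation p = 0.641), 0.32 for bta-miR-424-5p (permutation p = 0.272) and −0.28 for bta-miR-424-3p (permutation p = 0.286). Spearman's rho was 0.10, 0.30 and −0.27 in the same order (permutation p = 0.724, 0.293 and 0.346). The Benjamini-Hochberg adjusted p-values over the 6 pairs of members tested were 0.770, 0.571 and 0.571 for r and 0.869, 0.519 and 0.519 for rho. With 14 heifers the 95% intervals of r (Fisher's transformation) were wide, −0.42 to 0.62 for bta-miR-450a, −0.25 to 0.73 for bta-miR-424-5p and −0.70 to 0.30 for bta-miR-424-3p. All 3 intervals included 0. They do not allow for counting error at these low counts or for the counts of 0, which all share the same value. How closely the underlying levels go together thus cannot be judged from these intervals.

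SFH heifer 23 and FH heifer 25 had the lowest levels of bta-miR-450b and stood farthest from its median. Without them r was −0.20 for bta-miR-450a, −0.01 for bta-miR-424-5p and −0.16 for bta-miR-424-3p. Leaving out the extremes of bta-miR-450b also narrows its range, which by itself can lower r. With 1 heifer left out, r stayed above 0 for bta-miR-450a (0.03 to 0.37) and bta-miR-424-5p (0.17 to 0.44). Within FH the values of r were 0.14, 0.18 and −0.02 (exact permutation p = 0.779, 0.750 and 0.967, n = 7), and within SFH they were 0.17, 0.35 and −0.30 (exact permutation p = 0.657, 0.471 and 0.421, n = 7). Spearman's rho was −0.29, 0.04 and 0.11 within FH and 0.04, 0.37 and −0.29 within SFH. For bta-miR-503-5p, which had missed the filter and was added after its values were seen, r was 0.01 and rho was −0.24 (permutation p = 0.965 and 0.412, n = 14).

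**Figure D4:**
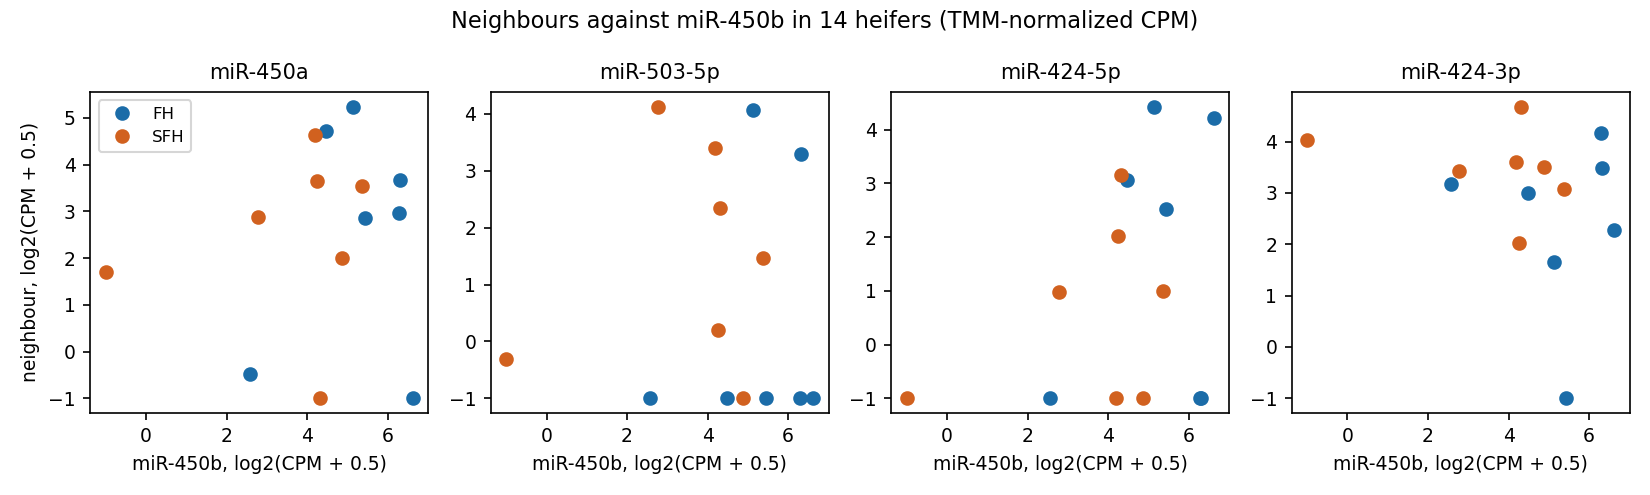
Level of each neighbour (vertical axes) against that of bta-miR-450b (horizontal axes), both as log2(TMM-normalized CPM + 0.5), in FH (blue) and SFH (orange) heifers; values of −1 are counts of 0. The points form no common slope, and heifers high in bta-miR-450b include some without a count of bta-miR-450a, bta-miR-503-5p, bta-miR-424-5p or bta-miR-424-3p.

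Among the pairs that leave out bta-miR-450b, the arms of miR-424 had r = −0.47 (permutation p = 0.0746) and rho = −0.58 (permutation p = 0.0325) over 14 heifers, with adjusted p-values over the 6 pairs of 0.448 and 0.195. The value of r was −0.39 without FH heifers 22 and 29, where the 5p arm stood farthest from its median, −0.55 within FH (exact permutation p = 0.196, n = 7) and −0.03 within SFH (exact permutation p = 0.946, n = 7), where rho was −0.74 and −0.19. bta-miR-450a had r = −0.04 with bta-miR-424-5p and r = −0.23 with bta-miR-424-3p (rho = 0.05 and −0.30; permutation p of r = 0.896 and 0.444, p of rho = 0.870 and 0.298), and without FH heifer 29 and SFH heifer 30 these r values were 0.57 (permutation p = 0.0479, not adjusted) and −0.17 (permutation p = 0.563). None of the 6 pairs passed after adjustment with either coefficient.

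The neighbours were not among the miRNAs most like bta-miR-450b when all 340 other miRNAs tested were ordered by r. bta-miR-424-5p ranked 52 and bta-miR-424-3p ranked 278, with bta-miR-450a between them. The median r of the 340 was −0.01 (quartiles −0.23 and 0.24), 23 of them (6.76%) reached a permutation p of 0.05 or less, none of these a member, and 0 passed after adjustment over the 340. The miRNA most like bta-miR-450b was bta-miR-27a-3p, a miRNA of the miR-23, miR-27 and miR-24 clusters, with r = 0.81 and rho = 0.76 (permutation p of r = 0.000300, adjusted over the 340 miRNAs 0.102). This held at r = 0.75 without heifers 23 and 25 and at 0.78 to 0.84 with 1 heifer left out, although bta-miR-27a-3p itself was at 2379 ± 553 CPM in FH and 2078 ± 471 CPM in SFH (n = 7 each, ± SD, edgeR log2 fold change −0.27, standard error 0.20). FH heifer 25 had its lowest level (1210 CPM) and SFH heifer 23 the next (1476 CPM). The next was bta-miR-340, with r = 0.72 and rho = 0.66 (permutation p of r = 0.00209, adjusted 0.237), and r = 0.50 without heifers 23 and 25.

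bta-miR-126-3p, a miRNA of platelets and endothelial cells, followed with r = 0.72 and rho = 0.52 (permutation p of r = 0.0123, adjusted 0.480). Its r was 0.15 without heifers 23 and 25, in which it was at 4.52 and 19.4 CPM, against 35.5 ± 16.8 CPM over FH and 29.0 ± 13.6 CPM over SFH (± SD over 7 heifers each). The other miRNA of that marker list, bta-miR-126-5p, had r = 0.19 and no count in SFH heifer 23 and in FH heifers 24 and 29, where bta-miR-450b was at 78.7 and 80.8 CPM. Summed, the 2 platelet and endothelial markers ranged from 22.4 to 68.3 CPM in FH and from 4.52 to 46.9 CPM in SFH, and neither passed the thresholds. Both had values below 0, where bta-miR-126-3p had a log2 fold change of −0.35 with a standard error of 0.55 and bta-miR-126-5p one of −1.47 with a standard error of 1.24 (edgeR p-value 0.250), close to the −1.45 of bta-miR-450b. Their part in the group difference of bta-miR-450b and in the low bta-miR-450b level of heifer 23 was not tested. bta-miR-2285bl and bta-miR-2285co, which had identical counts and cannot be told apart, completed the 5 most alike with r = 0.67 and rho = 0.51 (permutation p of r = 0.0127, adjusted 0.480), and r = 0.11 without heifers 23 and 25.

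**Figure D5:**
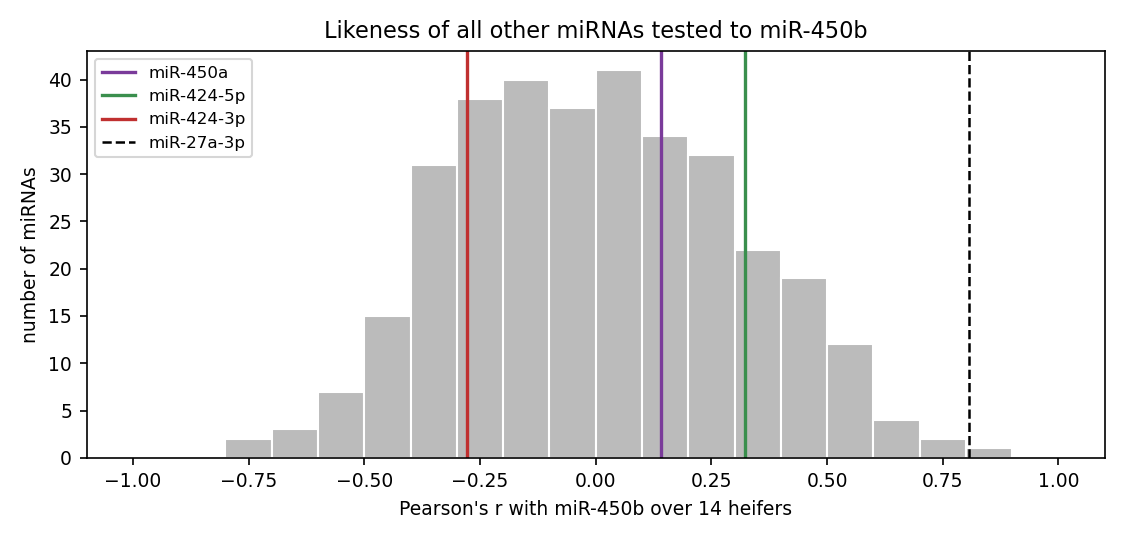
Number of miRNAs (vertical axis) by their Pearson's r with bta-miR-450b over 14 heifers (horizontal axis), for the 340 other miRNAs tested, with lines at the 3 neighbours tested and at bta-miR-27a-3p. The neighbours stand at 0.14, 0.32 and −0.28, well inside the range of −0.78 to 0.81, and bta-miR-27a-3p stands at its upper end at 0.81.

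Among the miRNAs of the extended seed family of miR-424 and miR-503 that come from other precursors, 5 of 6 were more abundant than bta-miR-424-5p and bta-miR-503-5p in both groups. All 6 of bta-miR-15a, bta-miR-15b, bta-miR-16a, bta-miR-16b, bta-miR-195 and bta-miR-497 were tested, and together they ranged from 14202 to 23596 CPM in FH and from 16403 to 23704 CPM in SFH. None passed the thresholds, and their median log2 fold change was 0.12. bta-miR-15b, the most abundant, was at 8315 ± 1260 CPM in FH and 7474 ± 1331 CPM in SFH (n = 7 each, ± SD, edgeR adjusted p-value 0.898). bta-miR-16b was at 5458 ± 1162 CPM and 6309 ± 1079 CPM, and bta-miR-16a at 4604 ± 976 CPM and 4894 ± 963 CPM. The least abundant, bta-miR-497, was as rare as bta-miR-424-5p, at 2.43 ± 3.82 CPM among FH and 5.86 ± 6.93 CPM among SFH. bta-miR-424-5p and bta-miR-503-5p thus made up a small part of the seed family in these cells, with 194 and 162 counts over all heifers.

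Other miRNAs of the X chromosome, 24 names of which 21 were tested, had a median log2 fold change of 0.02 and 0 past the thresholds in either direction. bta-miR-505, the 1 with an unadjusted p-value under 0.05 (edgeR p-value 0.0486, adjusted 0.828), had a log2 fold change of −0.36, under the fold change threshold. Their median r with bta-miR-450b was −0.08, and 10 of the 21 had an r above 0, compared to 49.1% of the 340 miRNAs. Among the 4 most abundant, bta-let-7f, bta-miR-223, bta-miR-221 and bta-miR-98, r was 0.45, −0.44, −0.74 and 0.30.

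Of the leukocyte markers, 7 of 8 had an r with bta-miR-450b above 0, compared to 49.1% of the 340 miRNAs, with a median of 0.17. The exception was the myeloid bta-miR-223, with r = −0.44, and r was near 0 for bta-miR-342 (0.04) and bta-miR-150 (0.11). The highest was 0.65, for bta-miR-155, a miRNA of activated lymphocytes and myeloid cells, which came next after the 5 miRNAs most like bta-miR-450b. Its part in the level of bta-miR-450b was not tested.

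Markers of erythrocytes and stromal cells gave no group difference past the thresholds. The erythrocyte markers summed to 1574 to 3712 CPM in FH and 1462 to 9234 CPM in SFH, with bta-miR-144 at a count of 0 in every heifer. bta-miR-451, the main erythrocyte miRNA, was at 1412 ± 531 CPM in FH and 2398 ± 2191 CPM in SFH (edgeR log2 fold change 0.72, standard error 0.39, p-value 0.0794), and had r = 0.07 with bta-miR-450b. The stromal markers summed to 178 to 316 CPM in FH and 145 to 608 CPM in SFH, and of the 4 tested 1 had an r above 0 with bta-miR-450b.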

How the data were processed

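Small RNA libraries of 14 heifers were compared as FH (n = 7) and SFH (n = 7), following the sample labels. The authors removed the adapter and 4 bases from each end of the reads with Cutadapt, aligned them with miRDeep2 to ARS-UCD1.2 and to miRBase precursors and mature miRNAs with 0 mismatches in the seed, and deposited raw counts per mature miRNA and precursor. The authors also deposited CPM, which equal the counts divided by each heifer's total over the 341 miRNAs kept. Of repeated names, the entry with the highest total was used.

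Counts of miRNAs that reached 1 CPM in 7 or more heifers were normalized by TMM. They were fitted with edgeR 4.0.16 (quasi-likelihood, R 4.3.3), SFH relative to FH, without covariates. DESeq2 1.42.0, a later version of the tool that the study used, was an alternative. Standard errors are the log2 fold change divided by the square root of F. Exact permutation tests used all 3432 arrangements, with a smallest possible p of 0.000583, and correlations 100000 permutations, on log2(TMM-normalized CPM + 0.5), in Python 3.11.15 with scipy 1.17.1. Fits were tested on simulated data.

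The members, lists and tests were chosen with earlier results of these data known, among them the group difference of bta-miR-450b. Named are all members, the 5 miRNAs with the highest r with bta-miR-450b and the most abundant miRNAs of the seed family and X chromosome lists; bta-miR-505, bta-miR-497 and the cell type markers named were chosen after their values were seen. Different heifers are different animals, so the tests take the animal as the unit. No preparation batch is named. Gene order came from RefSeq (ARS-UCD2.0); no sequences were used here.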

Additional observations from a re-analysis of the deposited data

Results flagged for a closer look

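Of 8 sets of 7 values (4 members in 2 groups), 1 held a heifer far from the others. The level of bta-miR-450b in SFH heifer 23, with a raw count of 0, was −1 on the log2 scale against 2.77 in the next lowest SFH heifer, and this gap was 0.592 of the range of the group, above Dixon's critical value of 0.568 for 7 values. The value −1 is set by the 0.5 CPM added to a count of 0, and with 2 CPM added the gap was 0.465 of the range, under the critical value. With 0.1 CPM added it was 0.692, and bta-miR-450a in SFH (0.610) and bta-miR-424-3p in FH (0.640) were above the critical value too. Chance flags about 1 in 20 such sets. Without heifer 23 the log2 fold change of bta-miR-450b was −1.23.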

How the results depend on the processing

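bta-miR-450b kept a log2 fold change below 0 in all of its alternatives. DESeq2 (−1.46, p-value 0.0406), the tool of the study, and the edgeR fits without FH heifer 25 or SFH heifer 21 placed it past the p-value threshold. With 1 heifer left out its log2 fold change was −1.76 to −1.23 and its edgeR p-value 0.0392 to 0.136. The other 3 members tested kept their direction and stayed short of the threshold in every edgeR and DESeq2 alternative in which they could be fitted. With at least 10 counts required in every heifer no member remained, which gave no value. In the exact permutation test bta-miR-450a changed sign with a pseudocount of 0.1 (0.04). Its r with bta-miR-450b changed sign on linear CPM (−0.08) and without the 2 farthest heifers (−0.20), as did that of bta-miR-424-5p without them (−0.01); with 1 heifer left out r was 0.03 to 0.37, 0.17 to 0.44 and −0.37 to −0.17 for bta-miR-450a, bta-miR-424-5p and bta-miR-424-3p. The arm ratio kept its direction under all alternatives. Of all miRNAs, 13 passed the thresholds, 126 of 614 without a filter, 20 of 434 with every precursor entry kept, and 11 to 22 with 1 heifer left out (22 without FH heifer 24, 20 without SFH heifer 26). After adjustment 0 passed, 2 did in DESeq2 and 1 did with every precursor entry kept (bta-miR-92b in both, bta-miR-2478 in DESeq2, named after their values were seen); with 1 heifer left out the number was 0. The causes were not tested. No paired analysis was possible because the groups share no heifer number. Depth limits bta-miR-503-3p and bta-miR-542-5p, without a count in any heifer, and bta-miR-503-5p and bta-miR-424-5p, each without a count in 6 heifers.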
